A study of Mus musculus with 79 samples.

Results

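The nuclear genes that encode the machinery of oxidative phosphorylation were followed in bulk RNA-seq of mPFC (medial prefrontal cortex) and vHipp (ventral hippocampus) of stressed and unstressed mice. A gene was a member when its GENCODE symbol carried the stem of a respiratory chain or ATP synthase subunit (Ndufa, Ndufb, Ndufc, Ndufs or Ndufv with a digit, Uqcr, Cox4 to Cox8, Atp5, and Sdha to Sdhd). The pattern matched 97 symbols, of which 8 containing -ps were left out, so that 89 of the 55471 gene identifiers counted were members. By their names, 40 belonged to complex I, 4 to complex II, 8 to complex III, 19 to complex IV and 18 to ATP synthase. The rule used symbols and no measured value, and 85 members were annotated as protein coding and 4 as processed pseudogenes.

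All mice were wild-type males of the outbred CD-1 strain, 9 to 10 weeks old and housed in groups. They had either gone through chronic social defeat stress (CSDS) for 21 days or served as unstressed controls (CTRL). Each then received a single intraperitoneal injection, either ketamine at 10 mg/kg or saline, and both regions were punched 7 days later. Of 40 mice, 39 contributed both regions, which gave 79 libraries in 8 groups of 10, with the exception of 9 libraries for the mPFC of ketamine-treated CSDS mice. The mice are males of a single strain, and a tissue punch holds neurons, glia and vessels together, so that fewer cells of a type and less RNA per cell cannot be told apart in any value below.

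Oxidative phosphorylation passes electrons from NADH through complex I, or from succinate through complex II, to complex III and then complex IV, which reduces oxygen. Complexes I, III and IV pump protons across the inner mitochondrial membrane, and ATP synthase uses the return flow to make ATP. Most subunits are encoded in the nucleus and a few core subunits of complexes I, III, IV and ATP synthase in mitochondrial DNA, and neurons, whose signalling is costly in energy, rely heavily on this pathway. Some complex IV subunits exist as paralogs, of which Cox6a2, Cox7a1 and Cox8b are best known from muscle and Cox4i2 from tissues that respond to low oxygen.

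Library totals ran from 11726129 to 41767119 counts. Members took 0.642 to 0.889% of all counts in mPFC, with a median of 0.742%, and 0.703 to 1.03% in vHipp, with a median of 0.807%. Of 5 markers of cortical projection neurons, 5 were higher in mPFC with adjusted p under the threshold of 0.05. Of 5 markers of hippocampal neurons, 4 were higher in vHipp, among them the dentate granule cell gene Prox1 (log2 fold change, LFC, of -2.84), and Wfs1 was higher in mPFC (LFC 1.45). The test throughout was the quasi-likelihood test of edgeR, with p-values adjusted by Benjamini-Hochberg over all genes. In vHipp, 3 libraries stood apart from the rest. In mouse 11 (CSDS, ketamine) genes encoded in mitochondrial DNA took 7.47% of counts, against a vHipp median of 3.35%. The same library held the highest sums in vHipp of astrocyte markers (3043 CPM, counts scaled to library size, against at most 1798 in any other vHipp library) and microglia markers (446 against at most 244.8 CPM). It also held the highest sums of markers of endothelial cells (250.4 against at most 183.9 CPM), excitatory neurons (10012 against 7896 CPM) and inhibitory neurons (1124 against 852 CPM). In mice 9 and 13 (both CSDS, saline) markers of the choroid plexus summed to 698 and 91.03 CPM, against at most 30.4 in any other vHipp library.

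Nearly all members were expressed in both regions, and 87 passed the low-count filter. The exceptions were Cox8c, a testis-enriched isoform with 2 counts in all libraries together, and a second identifier annotated as Atp5o, which had none. The levels of different genes were compared as CPM per kilobase of exon. On this scale the members' median was 38.1 in mPFC and 42.8 in vHipp. Within complex IV, Cox8a was the most abundant on this scale, at 326.5 ± 35.1 CPM per kilobase in mPFC (SD, n = 39) and 364.6 ± 44.1 in vHipp (n = 40). That order turned with the mean transcript length in place of the exon length, where Cox4i1 stood at 496.4 and Cox8a at 383.5 CPM per kilobase in mPFC, and at 500.7 and 428.2 in vHipp. Among ATP synthase genes, Atp5a1 encodes the alpha subunit of the catalytic head. It stood at 211.7 ± 10.0 CPM per kilobase of exon in mPFC and 239.2 ± 17.9 in vHipp. With the mean transcript length, Atp5a1 stood at 442.4 and 499.9 and Atp5b at 965.2 and 1112.8 CPM per kilobase. Ndufa4, named for complex I but known as a subunit of complex IV, reached 90.2 ± 7.98 and 105.8 ± 11.8 CPM per kilobase of exon. Sdha, the flavoprotein subunit of succinate dehydrogenase (complex II), reached 87.3 ± 4.63 and 90.2 ± 6.28 on that scale.

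The isoforms known from muscle and from low-oxygen tissue were a small fraction of their families in both regions. As a share of the summed CPM per kilobase of its family, Cox6a2 took 0.777 ± 0.324% in mPFC (SD, n = 39) and 0.519 ± 0.238% in vHipp (n = 40), and Cox4i2 took 0.773 ± 0.194% and 0.565 ± 0.232%. Cox7a1 took 0.726% and 0.919% of the Cox7a family, in which Cox7a2l, involved in respiratory supercomplexes, took 34.6% and 36.6%. Cox7b2 took 1.26% and 1.27% of its pair. Cox8b was listed at 0 in some libraries of each region and its mean was 0.109 CPM in mPFC and 0.165 CPM in vHipp. Ndufa4l2, a paralog of Ndufa4, took 1.87% and 1.45% of that pair. The shares rest on the exon length and would change with the mean transcript length. On that length Cox4i2 stood at 1.63 and Cox4i1 at 496.4 CPM per kilobase in mPFC.

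Promoter sequences (250 bases before to 50 bases after the annotated start) were found for 66 of the 88 distinct member symbols in the RefSeq annotation of GRCm38.p6. A motif known for the nuclear respiratory factor NRF1 (GCGCA, any base, then GCGC, on either strand) was in 17 of these 66 promoters (25.8%), against 4.68% of 27025 promoters of all genes. The core of an ETS site as bound by NRF2/GABP (CCGGAAG, either strand) was in 16 members (24.2%), against 9.08% of all promoters. At least 1 of these motifs was in 29 members (43.9%), against 12.8%. A YY1 motif (AAGATGGC), which can share its first letters with an ETS match, was in 9 members (13.6%) and in 2.86% of all promoters, and the letters TATAAA were in 7 members (10.6%) and in 14.1%. Member promoters had a median GC content of 57.2%, against 52.7% over all promoters, which bears on how often GC-rich letters occur by composition alone. The promoters of 5 members are shown because they span the range: 3 core or ubiquitous subunits with matches, the ubiquitous Cox5a without any, and the muscle isoform Cox7a1 without any. Each is written 5′ to 3′ on the strand of the gene, with NRF1 and ETS matches in capitals.
Sdha (chr13:74350191-74350490, minus strand): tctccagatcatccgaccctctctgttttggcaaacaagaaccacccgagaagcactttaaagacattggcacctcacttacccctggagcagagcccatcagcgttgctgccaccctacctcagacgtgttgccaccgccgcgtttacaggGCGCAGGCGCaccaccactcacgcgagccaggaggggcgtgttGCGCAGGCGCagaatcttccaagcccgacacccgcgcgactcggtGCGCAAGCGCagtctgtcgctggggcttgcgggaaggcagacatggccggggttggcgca
Ndufs3 (chr2:90904672-90904971, minus strand): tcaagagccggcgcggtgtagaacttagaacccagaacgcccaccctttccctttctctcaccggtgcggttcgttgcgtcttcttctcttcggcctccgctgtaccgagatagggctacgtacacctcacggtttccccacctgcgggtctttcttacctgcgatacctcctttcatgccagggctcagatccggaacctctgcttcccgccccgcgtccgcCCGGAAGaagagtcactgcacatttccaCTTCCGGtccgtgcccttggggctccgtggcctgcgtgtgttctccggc
Cox6a1 (chr5:115348909-115349208, minus strand): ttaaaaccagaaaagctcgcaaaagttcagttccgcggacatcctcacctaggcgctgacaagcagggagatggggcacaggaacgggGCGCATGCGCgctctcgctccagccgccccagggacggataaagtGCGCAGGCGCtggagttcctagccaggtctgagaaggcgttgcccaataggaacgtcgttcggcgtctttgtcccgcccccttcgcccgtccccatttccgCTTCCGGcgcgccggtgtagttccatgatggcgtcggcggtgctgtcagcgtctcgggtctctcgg
Cox5a (chr9:57520982-57521281, plus strand): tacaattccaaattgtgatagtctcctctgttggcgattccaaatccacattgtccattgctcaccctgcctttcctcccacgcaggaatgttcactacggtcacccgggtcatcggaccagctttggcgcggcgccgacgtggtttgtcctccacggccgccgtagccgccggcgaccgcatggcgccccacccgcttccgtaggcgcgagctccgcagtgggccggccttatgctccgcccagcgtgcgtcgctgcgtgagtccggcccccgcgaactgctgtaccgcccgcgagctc
Cox7a1 (chr7:30183921-30184220, plus strand): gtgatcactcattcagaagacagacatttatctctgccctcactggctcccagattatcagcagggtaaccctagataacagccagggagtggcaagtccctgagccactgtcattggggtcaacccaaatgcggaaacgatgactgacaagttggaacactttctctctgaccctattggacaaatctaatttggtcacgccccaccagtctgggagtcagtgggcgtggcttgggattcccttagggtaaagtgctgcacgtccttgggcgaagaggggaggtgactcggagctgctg
The Sdha promoter held 3 NRF1 matches, that of Cox6a1 held 2 NRF1 matches and 1 ETS match, and that of Ndufs3 held 2 ETS matches. A match describes letters in the window and was not tested for binding.

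The first comparison asked how the regions differ. Members were lower in mPFC than in vHipp: 73 of the 87 tested were lower, 2 were higher and 12 were not called, in a comparison that called 48.9% of 31534 genes (24.4% lower and 24.5% higher). The members' median LFC (mPFC minus vHipp) was -0.18, against 0.00 over all genes tested. The differences were small, with 79 of 87 estimates negative and the middle of the distribution between -0.25 and -0.12. The estimate was negative in each of the 4 treatment groups for 77 members and positive in each for 3. In every member the values of the regions overlapped, whereas 2.92% of all genes had regions that did not overlap. Among the members called lower, the median number of mice with a lower level in mPFC was 34 of the 39 with both regions.

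**Figure D1:**
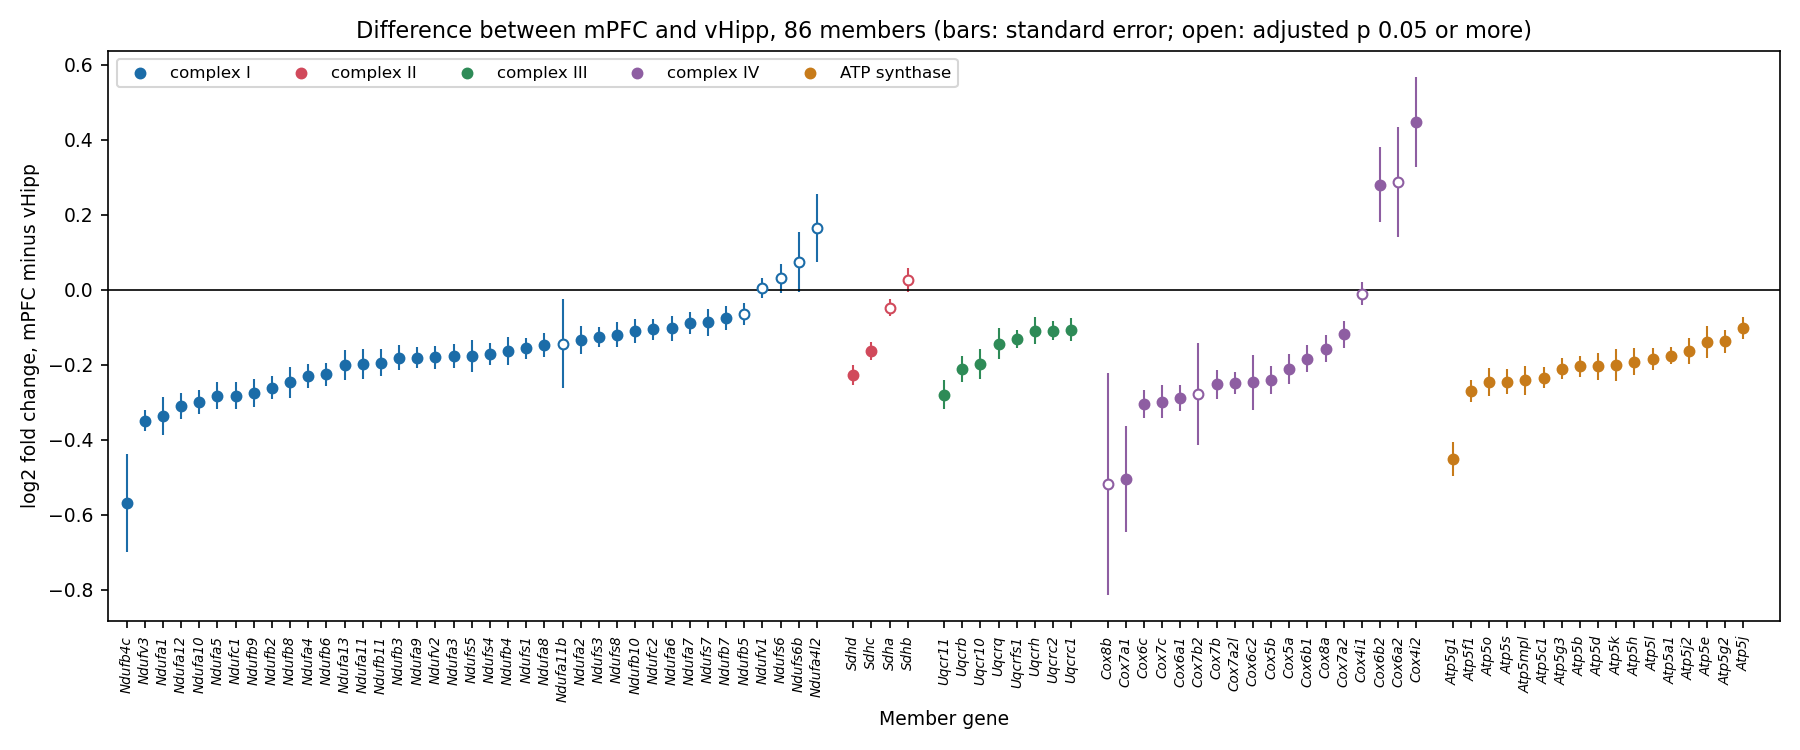
The log2 fold change of 86 of the 87 members tested between mPFC and vHipp (y axis; negative is lower in mPFC), ordered within each complex, with bars for the standard error. Filled points passed an adjusted p of 0.05; 72 lie below 0 and 2, Cox6b2 and Cox4i2, above it.

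In complex I, the NADH dehydrogenase, 34 of 40 members were lower in mPFC and none was higher, with a median LFC of -0.17. Ndufv3, an accessory subunit of the NADH-binding module, ranged from 38.0 to 55.2 CPM in mPFC (median 43.4) and from 46.6 to 73.3 CPM in vHipp (median 55.4). The ranges overlapped at their ends, yet Ndufv3 was lower in mPFC in each of the 39 mice. Its LFC was -0.35 (SE 0.03, adjusted p = 2.16e-19, edgeR quasi-likelihood test). The accessory subunits Ndufa1 (LFC -0.34, SE 0.05), Ndufa12 (-0.31, SE 0.03) and Ndufa10 (-0.30, SE 0.03) were also lower.

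Among the core subunits of complex I, Ndufs1, Ndufs3, Ndufs7, Ndufs8 and Ndufv2, which carry the iron-sulfur clusters or the quinone site, were each called lower, with LFCs between -0.18 and -0.09. Ndufv1, which binds NADH and the flavin, was the member nearest to 0. It ranged from 110.2 to 147.4 CPM in mPFC (median 128.4) and from 100.7 to 149.2 CPM in vHipp (median 128.6), almost the same span, with an LFC of 0.00 (SE 0.03, adjusted p = 0.946, edgeR quasi-likelihood test). The LFC farthest from 0 in the complex belonged to Ndufb4c, an annotated processed pseudogene at 0.473 ± 0.203 CPM in mPFC and 0.696 ± 0.278 CPM in vHipp (LFC -0.57, SE 0.13). Its reads may be shared with Ndufb4, so that this value is uncertain.

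Complex II, which also serves the citrate cycle as succinate dehydrogenase, split between its subunits. Its membrane anchors Sdhc and Sdhd were lower in mPFC, and its catalytic subunits Sdha and Sdhb were not called. Sdhd ranged from 46.2 to 62.4 CPM in mPFC (median 52.5) and from 50.6 to 76.7 CPM in vHipp (median 61.9). It was lower in mPFC in 38 of 39 mice (LFC -0.23, SE 0.03, adjusted p = 8.01e-12, edgeR quasi-likelihood test). Sdhc gave an LFC of -0.16 (SE 0.02) and was also lower in 38 of 39 mice.

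Sdha, by contrast, ranged from 315.0 to 391.3 CPM in mPFC (median 362.0) and from 314.6 to 427.8 CPM in vHipp (median 368.2), with groups that overlapped throughout. Its LFC was -0.05 (SE 0.02, adjusted p = 0.0665, edgeR quasi-likelihood test). Sdhb, the iron-sulfur subunit, had means of 85.3 ± 7.59 CPM in mPFC and 83.8 ± 9.44 CPM in vHipp (LFC 0.03, SE 0.03, adjusted p = 0.559 by the same edgeR test). Whether the anchors differ from the catalytic subunits was not tested.

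All 8 members of complex III, the cytochrome bc1 complex, were lower in mPFC, with a median LFC of -0.14. Uqcr11, a small accessory subunit, ranged from 41.9 to 76.6 CPM in mPFC (median 56.0) and from 55.2 to 100.5 CPM in vHipp (median 67.4). The regions overlapped over much of that range, and 37 of 39 mice were lower in mPFC (LFC -0.28, SE 0.04). The core subunits Uqcrc1 (LFC -0.11, SE 0.03) and Uqcrc2 (-0.11, SE 0.03) and the Rieske iron-sulfur protein Uqcrfs1 (-0.13, SE 0.02) were lower, as was the accessory subunit Uqcrh (-0.11, SE 0.04). Uqcr11 is named for the lowest LFC of the complex, and core and accessory subunits were not tested against each other.

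Complex IV, cytochrome c oxidase, held the 2 members that were higher in mPFC: 12 of its 18 tested members were lower, 2 were higher and 4 were not called, with a median LFC of -0.24. Of the ubiquitous subunits, Cox6c ranged from 78.1 to 131.4 CPM in mPFC (median 99.2) and from 95.95 to 173.4 CPM in vHipp (median 122.7). It was lower in mPFC in all 39 mice, with an LFC of -0.30 (SE 0.04, adjusted p = 1.44e-11, edgeR quasi-likelihood test). Cox6a1 (LFC -0.29, SE 0.03) and Cox7c (-0.30, SE 0.04) were lower in 38 mice each. Cox5a (GRCm38 chr9:57521274-57532426, plus strand), which joins the mitochondrially encoded core early in assembly, ranged from 73.8 to 128.8 CPM in mPFC (median 101.5) and from 91.9 to 151.8 CPM in vHipp (median 114.05). It was lower in mPFC in 35 of 39 mice, with overlapping regions (LFC -0.21, SE 0.04, adjusted p = 6.60e-06, edgeR quasi-likelihood test).

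Cox4i1, the ubiquitous form of the subunit that pairs with Cox5a in early assembly, was not called. It ranged from 251.9 to 378.3 CPM in mPFC (median 294.6) and from 249.1 to 384.0 CPM in vHipp (median 298.2), nearly the same span (LFC -0.01, SE 0.03, adjusted p = 0.824, edgeR quasi-likelihood test). Its low-abundance paralog Cox4i2 was higher in mPFC, at 0.375 to 2.00 CPM (median 1.15) against 0.121 to 1.98 CPM (median 0.876). The ranges of Cox4i2 overlapped almost completely, and 12 of 39 mice went the other way (LFC 0.45, SE 0.12, adjusted p = 0.00113 by the same edgeR test).

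The other isoforms at low level differed in direction. Cox6b2, known from testis, had means of 1.58 ± 0.520 CPM in mPFC and 1.299 ± 0.374 CPM in vHipp and was called higher in mPFC (LFC 0.28, SE 0.10, adjusted p = 0.0151, edgeR quasi-likelihood test). With the mouse as a replicate block the adjusted p of Cox6b2 was 0.0515. Cox6a2 had means of 1.16 ± 0.510 CPM in mPFC and 0.947 ± 0.466 CPM in vHipp (LFC 0.29, SE 0.15) with an adjusted p of 0.0979 in the edgeR test, and of 0.0127 with that block. Cox7a1 was lower in mPFC, at 0.503 ± 0.193 CPM against 0.715 ± 0.344 CPM, in 25 of 39 mice (LFC -0.50, SE 0.14, adjusted p = 0.00188 by edgeR). Beside these isoforms stand markers of skeletal or heart muscle, of which 5 of 5 were higher in mPFC, and of erythroid cells, of which 4 of 4 were higher. The muscle list summed to 14.6 to 36.9 CPM in mPFC and 7.60 to 17.3 CPM in vHipp, with Tnnt2 at an LFC of 4.06, and the erythroid list to 55.8 to 456 CPM and 24.1 to 265 CPM, with no gene of either list at 0 throughout a group. Their part in the isoform values was not tested.

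In ATP synthase all 17 tested members were lower in mPFC, with a median LFC of -0.20. The alpha and beta subunits of the catalytic head, Atp5a1 and Atp5b, gave LFCs of -0.18 (SE 0.02) and -0.20 (SE 0.03). The genes Atp5g1, Atp5g2 and Atp5g3 encode the same mature c subunit of the rotor ring with different import sequences. Atp5g1 ranged from 47.8 to 91.8 CPM in mPFC (median 67.1) and from 49.4 to 117.9 CPM in vHipp (median 92.6). It was lower in mPFC in all 39 mice, although the regions overlapped, with an LFC of -0.45 (SE 0.05, adjusted p = 2.61e-14, edgeR quasi-likelihood test). The lowest vHipp value of Atp5g1 was that of mouse 11, whose library had the high mitochondrial share.

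Atp5g3, the most abundant of the c subunit genes, had means of 143.1 ± 11.4 CPM in mPFC and 165.7 ± 14.4 CPM in vHipp (LFC -0.21, SE 0.03). Atp5g2 had means of 31.5 ± 3.18 CPM and 34.6 ± 2.86 CPM (LFC -0.14, SE 0.03). The c subunit genes have near-identical copies elsewhere in the genome, and how such reads were counted is not given in the sources used here. Atp5s, which encodes a coupling factor and no subunit of the enzyme, was also lower (LFC -0.25, SE 0.03).

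The regional difference was present in each treatment group, in differing numbers of calls. In saline-treated CTRL mice 23 members were lower and 1 was higher (median LFC -0.12), against 29% of all genes called, 14.7% lower and 14.4% higher. In ketamine-treated CTRL mice 50 were lower and 1 was higher (median -0.19), against 29.2% called, 14.8% lower and 14.3% higher. In saline-treated CSDS mice 61 were lower (median -0.23), against 28% called, 13.4% lower and 14.6% higher. In ketamine-treated CSDS mice 41 were lower (median -0.18), against 27.2% called, 13.9% lower and 13.3% higher. With the mouse as a replicate block the counts lower and higher became 39 and 2 (against 31.3% of all genes called), 60 and 1 (31.2%), 71 and 0 (30.3%), and 53 and 0 (28.7%) in the same order. A larger number of calls in a group does not show a larger difference, and the test of that difference is given with the stress comparisons. Over all groups, the block gave 75 lower and 2 higher, against 49% of all genes. Leaving out the 3 vHipp libraries that stood apart gave 72 lower and 3 higher, Ndufa4l2 being the addition.

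The members' level varied with that of other short transcripts between libraries, so the regional difference was set beside genes of like length. The 79 members with a mean of at least 1 CPM had a median transcript of 730 bases, and 77.2% of them were under 1000 bases, against 12.2% of other protein-coding genes. Their median difference was -0.18 on the log2 scale, with 91.1% negative. Short non-members (1642 genes) had a median of -0.02, long ones (1124 genes of 4000 bases or more) a median of -0.01, and 79 cytosolic ribosomal protein genes, short and abundant like the members, a median of -0.02. The 61 short members and the 18 longer members both stood at -0.18.

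Genes around the pathway were lower in mPFC for the most part too. Of 13 subunits encoded in mitochondrial DNA, 12 were lower and none was higher (median LFC -0.30). In CTRL saline, however, their summed level had a median of 31594 CPM in mPFC and 31100 CPM in vHipp. The medians were 29600 against 34096 CPM in CTRL ketamine, and 31459 against 36366 CPM in CSDS saline. In CSDS ketamine they were 31213 against 36554 CPM. The vHipp sum of mouse 11 (CSDS, ketamine) was 77623 CPM, and its library is part of these calls. The electron carrier Cycs (LFC -0.23) and the acyl carrier Ndufab1 (-0.15) were lower. Of the citrate cycle genes, 10 of 13 were lower and 1 was higher. Suclg1 (LFC -0.45) and Suclg2 (0.27), which encode the alpha and a beta subunit of succinate-CoA ligase, moved in opposite directions. Of the 15 glycolysis identifiers, 11 were lower and 2 were higher, and here the phosphofructokinase genes moved apart, with Pfkl at -0.74 and Pfkp at 0.50.

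Assembly factors of complex I were lower in 6 of 14 (1 higher), those of complex II in 2 of 4, of complex III in 3 of 6, of complex IV in 11 of 19 (5 higher) and of ATP synthase in 3 of 3. Over all genes, 24.4% were lower and 24.5% higher. Among complex IV factors the copper chaperones Sco1 (LFC 0.27) and Sco2 (-0.26) moved in opposite directions. Of 11 regulators of mitochondrial biogenesis, 6 were lower and 1 was higher. The subunits of the NRF2/GABP factor named above moved in opposite directions, with Gabpa lower (LFC -0.13) and Gabpb1 higher (0.14). Nrf1 was not called (LFC -0.01). Neuron markers were lower in 4 of 7 and higher in 1. Markers of excitatory neurons were lower in 2 of 3, with Camk2a at an LFC of -0.31, and their summed level had group medians of 5230 to 5472 CPM in mPFC and 6283 to 6846 CPM in vHipp. Inhibitory neuron markers were lower in 3 of 3 and parvalbumin interneuron markers in 2 of 3, with Syt2 at -0.57. Choroid plexus markers were lower in 2 of 5, with Kl at -1.91, and higher in 1, and striatal neuron markers were lower in 1 of 5 and higher in 4. Astrocyte markers were lower in 2 of 5 and higher in 1, none of 5 oligodendrocyte markers was called, and microglia (1 of 5) and endothelial markers (2 of 4) were called only as higher. The part of cell composition in the members' difference was not tested.

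The next comparisons asked whether CSDS or ketamine moved the members within a region. No member passed an adjusted p of 0.05 for stress or ketamine in either region, and neither did any of the 28993 genes tested in mPFC or of the 28991 in vHipp (0% called, edgeR quasi-likelihood test). DESeq2 and limma-voom called none either. These fits pool social ranks and hold no term for the housing arena. The paper compared stress within rank and treatment, with that term, and reported differentially expressed genes in mPFC of dominant ketamine-treated mice. Its samples and model thus differ from those used here. The members' mean log2 CPM in mPFC was 5.89 ± 0.10 in CTRL saline, 5.81 ± 0.06 in CTRL ketamine, 5.82 ± 0.13 in CSDS saline and 5.90 ± 0.13 in CSDS ketamine (SD over mice). In vHipp it was 5.97 ± 0.16, 5.97 ± 0.14, 6.04 ± 0.11 and 6.06 ± 0.13 in the same order. Within a region the values of the groups overlapped.

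**Figure D2:**
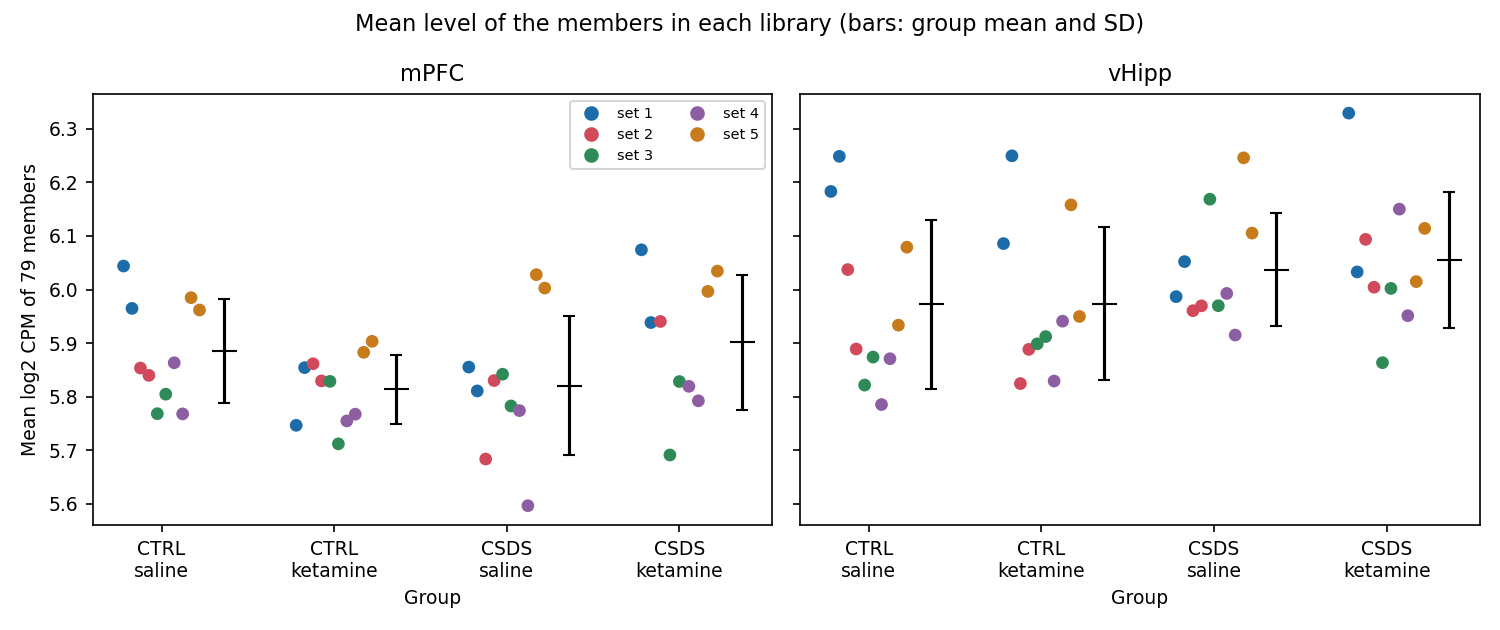
The mean log2 CPM of 79 members in each library (y axis) by group, with bars for the group mean and SD; colours mark 5 sets of mouse numbers. Group means run from 5.81 to 5.90 in mPFC and from 5.97 to 6.06 in vHipp, and the groups of a region overlap.

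In mPFC the small estimates shared a sign. Under saline, stress gave a median LFC of -0.06, with 7 of 87 members positive, and under ketamine a median of 0.09, with 81 positive. Ketamine gave a median of -0.07 in CTRL mice, with 2 positive, and of 0.09 in CSDS mice, with 79 positive. At an unadjusted p below 0.05 stood 3, 11, 3 and 6 members in that order, against 2.94%, 5.8%, 3.64% and 4.32% of all genes. DESeq2 placed 3, 8, 3 and 4 members there. Single libraries weighed on these medians. The stress median under saline was -0.03 without mouse 22 (CTRL, saline) and -0.04 without mouse 15 (CSDS, saline), and the ketamine median in CTRL mice was -0.05 without mouse 22. Without mouse 1 (CSDS, ketamine) the stress median under ketamine was 0.06 and the ketamine median in CSDS mice 0.05. Other libraries moved the medians the other way. Without mouse 18 (CSDS, saline) the stress median under saline was -0.08 and the ketamine median in CSDS mice 0.12. The stress median under ketamine was 0.11 without mouse 11 (CSDS, ketamine). The ketamine median in CTRL mice was -0.09 without mouse 29 (CTRL, saline). These comparisons share groups, and members vary together across libraries, so a common sign over members is not a count of independent results.

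The interaction of stress and ketamine in mPFC, the difference between the stress effects under ketamine and under saline, had a median of 0.16 with 81 of 87 members positive. None was called, and 25 members stood at an unadjusted p below 0.05, all of them positive, against 5.31% of all genes in either direction and 2.43% positive. DESeq2 called none and placed 23 below that unadjusted level. By complex, the median was 0.16 in complex I, 0.12 in complex II, 0.16 in complex III, 0.19 in complex IV and 0.15 in ATP synthase. The count of 25 became 7 without mouse 22 (CTRL, saline) or mouse 1 (CSDS, ketamine) and 47 without mouse 11 (CSDS, ketamine). As a difference of group means of log2 CPM, the median was 0.14 for members, 0.12 for cytosolic ribosomal proteins, 0.08 for short non-members and -0.10 for long ones. With an offset for transcript length the members' median was 0.06, with 6 members at an unadjusted p below 0.05.

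**Figure D3:**
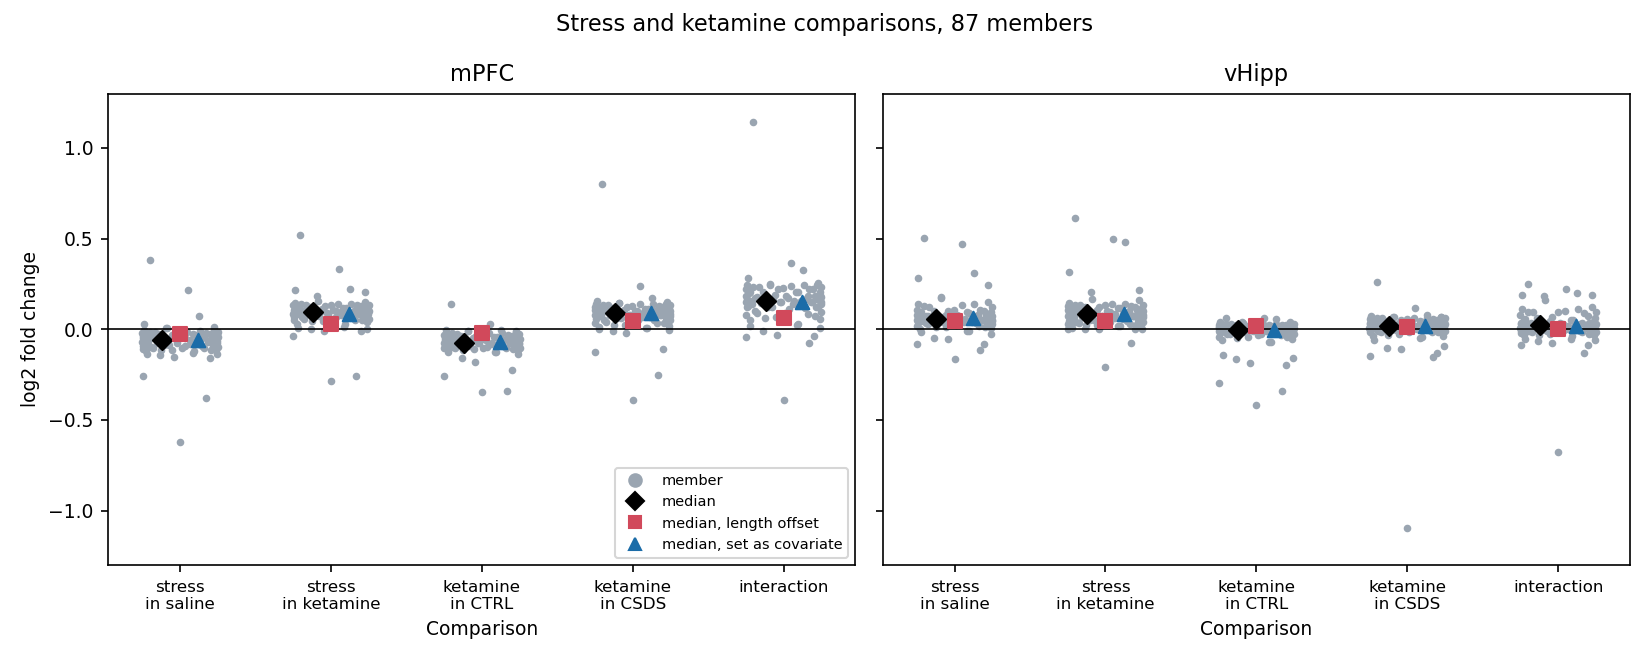
The log2 fold change of each of 87 members (grey points) in the stress, ketamine and interaction comparisons, with the median of the members (black) and the median with a transcript length offset (red) or with the set of mouse numbers as covariate (blue). The mPFC interaction has a median of 0.16 and, with the length offset, of 0.06.

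Single members showed the pattern at various levels. Cox5a in mPFC ran from 95.4 to 118.1 CPM in CTRL saline (median 101.5), from 87.3 to 113.98 in CTRL ketamine (median 96.4), from 73.8 to 128.6 in CSDS saline (median 99.1) and from 85.3 to 128.8 in CSDS ketamine (median 111.5). All groups overlapped, and the CSDS groups spread the most (interaction LFC 0.25, SE 0.10, adjusted p = 0.898, edgeR quasi-likelihood test). Atp5h, a subunit of the peripheral stalk of ATP synthase, ran in the same order from 93.5 to 123.3 CPM (median 102.6), 79.8 to 103.9 (median 98.9), 88.3 to 128.8 (median 95.9) and 94.7 to 128.9 (median 108.6). Its groups overlapped as well (interaction LFC 0.28, SE 0.09, adjusted p = 0.898 by the same edgeR test).

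The widest estimate was that of Cox6a2, at about 1 CPM. It ran from 0.660 to 2.07 CPM in CTRL saline (median 1.21), 0.437 to 1.74 in CTRL ketamine (median 0.930), 0.462 to 1.32 in CSDS saline (median 0.832) and 0.589 to 2.71 in CSDS ketamine (median 1.60). The groups overlapped, and the interaction LFC was 1.14 (SE 0.36) with an adjusted p of 0.898 in edgeR's quasi-likelihood test. Uqcrfs1 gave an interaction LFC of 0.16 (SE 0.06, same adjusted p), and Sdha stayed near 0, with group medians of 365.0, 355.9, 371.2 and 354.3 CPM.

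The members nearest to a call in the other mPFC comparisons also failed the adjustment, with adjusted p of 0.830 or more in edgeR's test. Stress under saline had Cox6a2 (LFC -0.62, SE 0.25), Ndufc1 (-0.15, SE 0.07) and Ndufc2 (-0.12, SE 0.05). Stress under ketamine had Atp5h (0.22, SE 0.07), Ndufs4 (0.14, SE 0.05) and Uqcrfs1 (0.11, SE 0.04). Ketamine in CTRL mice had Atp5h (-0.16, SE 0.07), Atp5g2 (-0.14, SE 0.06) and Ndufa5 (-0.13, SE 0.06), and in CSDS mice Cox6a2 (0.80, SE 0.26), Ndufa8 (0.14, SE 0.06) and Ndufc1 (0.15, SE 0.07).

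In vHipp, stress gave a median of 0.06 under saline, with 77 of 87 members positive and 2 at an unadjusted p below 0.05 (against 5.57% of all genes). Under ketamine it gave 0.08, with 85 positive and 5 below that level (against 5.42%), and 13 when the 3 libraries that stood apart were left out. Without mouse 1 (CSDS, ketamine), which had the highest mean level of the members and the lowest of long non-members in its group, the median under ketamine was 0.04 with 2 members below that level. The median under saline was 0.04 without mouse 18 (CSDS), 0.09 without mouse 22 and 0.10 without mouse 24 (both CTRL). As differences of group means of log2 CPM, members gave 0.05 under saline and 0.07 under ketamine, and cytosolic ribosomal proteins 0.09 and 0.06. Short non-members gave 0.004 and 0.02, and long ones -0.05 and -0.07. Within 5 sets of mice by number, the members' median for sets 1 to 5 was -0.18, -0.04, 0.23, 0.09 and 0.18 under saline and 0.00, 0.21, 0.01, 0.16 and -0.04 under ketamine. Cox6a1 ran from 137.9 to 215.3 CPM in CTRL ketamine (median 175.3) and from 171.4 to 249.5 in CSDS ketamine (median 195.2), with overlap (LFC 0.21, SE 0.08, adjusted p = 0.896, edgeR quasi-likelihood test). Ndufb9, an accessory subunit of complex I, gave 0.17 (SE 0.09) under saline and 0.22 (SE 0.09) under ketamine, and Atp5mpl gave 0.18 (SE 0.08) under saline, with adjusted p of 0.880 or more in that test. Ndufb3 under saline (0.15, SE 0.08) and the low-level Cox4i2 under ketamine (0.62, SE 0.28) also failed the adjustment. Ketamine gave medians of 0.00 in CTRL and 0.02 in CSDS mice and an interaction of 0.02, with 0 members at an unadjusted p below 0.05 against 2.88%, 2.9% and 2.84% of all genes, and DESeq2 also placed 0 there. The smallest p-values belonged to Ndufs6b (LFC -0.30), Cox7b2 (-0.34) and Cox6c2 (-0.17) for ketamine in CTRL mice, to Cox8b (-1.10), Ndufb3 (-0.11) and Atp5g1 (0.12) for ketamine in CSDS mice, and to Atp5g1 (0.18), Ndufb3 (-0.13) and Ndufv3 (0.09) for the interaction.

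The stress effect under saline was set against itself between the regions. The members' median difference (mPFC minus vHipp) was -0.11, with 8 of 87 positive, none called and 5 at an unadjusted p below 0.05, against 5.5% of all genes. With the mouse as a replicate block the median was -0.12 and 26 members stood below that unadjusted level, against 6.61% of all genes, with a smallest adjusted p among members of 0.571 in edgeR's quasi-likelihood test. Under ketamine the same difference had a median of 0.01 with 52 positive, none called and 1 at an unadjusted p below 0.05 (against 4.1% of all genes).

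Members varied together from library to library within the groups. After group means were removed, pairs of the 79 members had a median Pearson r of 0.66 over 39 mPFC libraries (95.5% of 3081 pairs positive) and of 0.73 over 40 vHipp libraries (96.1%). These points share a library, its depth and its composition, and the values are given as a description. Those most like the mean of the others in mPFC were Cox4i1 (r = 0.94 in mPFC and 0.92 in vHipp), Cox6b1 (0.93 and 0.94), Sdhb (0.93 and 0.91) and Atp5j2 (0.92 and 0.94). In vHipp the highest r belonged to Cox7a2 (0.95), Cox7b (0.95), Ndufb11 (0.95) and Ndufa13 (0.94). Cox5a gave 0.70 and 0.84.

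A few members did not follow the rest. The isoforms Ndufa4l2 (-0.03 and 0.01), Cox6b2 (-0.03 and 0.08), Cox6a2 (0.20 and 0.10) and Cox4i2 (0.20 and 0.30) had the lowest r. These are counted at a few CPM or fewer, and the part of counting error in their low r was not tested. Among better counted members, Ndufb2 (0.22 and 0.40), Ndufs1 (0.23 and 0.34), Ndufc2 (0.24 and 0.51) and Sdha (0.28 and 0.43) were also low. With the neuron markers, r was 0.81 in mPFC and 0.80 in vHipp for Sdha and 0.70 and 0.79 for Ndufs1, beside 0.36 and 0.51 for the mean of the members. With markers of excitatory neurons, r was 0.64 and 0.22 for Sdha and 0.60 and 0.19 for Ndufs1, and with those of inhibitory neurons 0.28 and 0.13 for Sdha and 0.33 and 0.16 for Ndufs1. With citrate cycle genes it was 0.73 and 0.87 for Sdha and 0.69 and 0.82 for Ndufs1, beside 0.76 and 0.78 for the mean of the members. Ndufb2 (0.21 and 0.16) and Ndufc2 (0.13 and 0.33) had low r with neuron markers. Ndufa4l2 had r = 0.73 with astrocyte and 0.69 with microglia markers in vHipp, or 0.65 and 0.59 without mouse 11, and 0.34 and 0.30 in mPFC. The non-members most like the members' mean were Edf1 (0.92), Hcfc1r1 (0.92) and Cope (0.91) in mPFC, and Prdx2 (0.94), Hcfc1r1 (0.94) and Sod1 (0.93) in vHipp.

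The shared variation ran across animals and along transcript length. The members' mean in mPFC and vHipp of the same mouse had r = 0.62 (Spearman's rho = 0.64, 39 mice), and r = 0.58 without mice 11 and 15, which lay farthest out. The mice fall into 5 sets of 8 by number, with 2 mice of each group in a set. A set joins CSDS mice of consecutive numbers with CTRL mice of consecutive numbers, such as mice 1 to 4 with mice 21 to 24. The libraries of a set, from both regions, also carry consecutive library numbers. What a set stands for in the handling of animals or samples is not otherwise in the labels. Sets 1 and 5 were the highest in both regions, at 0.06 and 0.12 above the mPFC mean and 0.14 and 0.07 above the vHipp mean on the log2 scale. With set means removed, r between the regions was 0.39, and within single sets it ran from -0.22 to 0.78 over 7 or 8 mice. With an offset for transcript length it was 0.42.

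**Figure D4:**
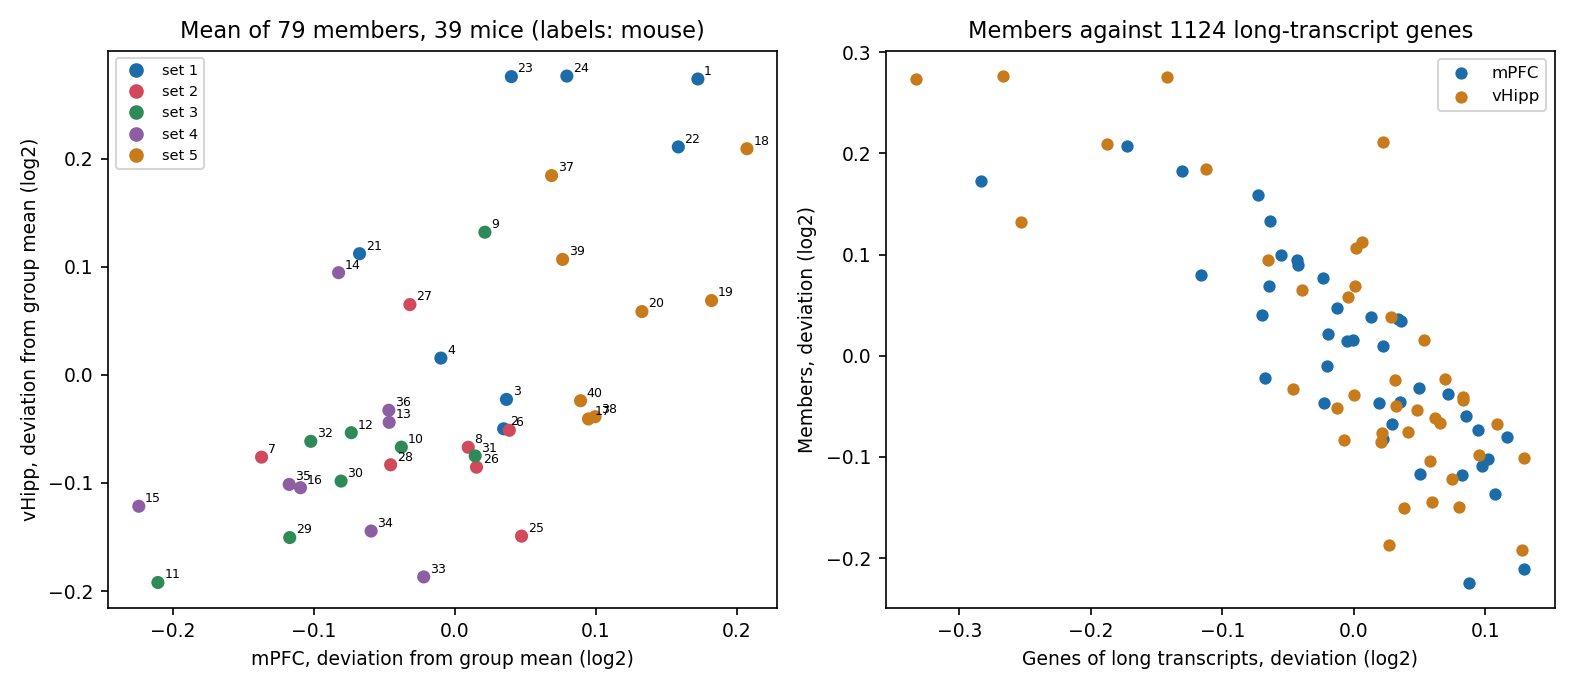
Left, the deviation of the members' mean from its group mean in mPFC (x axis) and vHipp (y axis) of 39 mice, coloured by set of mouse numbers; right, the same deviation in each library (y axis) against that of 1124 genes of long transcripts (x axis), both log2. The left panel has r = 0.62, and in the right panel libraries with more of the members have less of the long transcripts (r of -0.85 and -0.80).

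Within groups, the members' mean varied with that of short non-members (r = 0.78 in mPFC and 0.89 in vHipp) and of cytosolic ribosomal proteins (0.78 in both), and against that of long non-members (-0.85 and -0.80). Without the 2 libraries farthest out, r with the long non-members was -0.85 in mPFC and -0.73 in vHipp. The subunits encoded in mitochondrial DNA did not follow (-0.41 and -0.12), and neither did the total counts (0.11 and 0.30). The mPFC interaction was also taken within single sets of mouse numbers. Its median there was 0.41, 0.16, -0.06, 0.15 and 0.05 for sets 1 to 5. Set 2 held 7 mPFC libraries, with mouse 6 alone in CSDS ketamine. In the other mPFC comparisons the median within sets ran from -0.18 to 0.06 for stress under saline, -0.01 to 0.21 for stress under ketamine, -0.21 to 0.02 for ketamine in CTRL and -0.05 to 0.19 for ketamine in CSDS mice. With the set as a covariate 52 members stood at an unadjusted p below 0.05, against 7.48% of all genes, and none was called (edgeR quasi-likelihood test). The part of transcript length or of the sets in the members' estimates was not tested.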

How the data were processed

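The authors deposited raw counts per gene and library for the whole series, made from poly(A)-selected stranded libraries. The submitters' processing notes name bcl2fastq 2.20.0.422 and the GRCm38 genome. The aligner, the counting program and its use of strand are not given in the sources used here. Libraries were grouped by GEO's labels. Social rank and housing arena are not in those labels and were not used. The members, gene lists and tests were chosen with earlier results of these data known. Genes with more than 10 counts in total and found in more than 3 libraries were kept, the limits that the study's methods name, although their wording can also mean that genes failing both limits were removed. edgeR 4.0.16 (R 4.3.3) with TMM scaling and glmQLFit/glmQLFTest was fitted over 4 groups of a region, or over all 8 groups for regions, with Benjamini-Hochberg adjustment over all genes. CPM were TMM-scaled, and log2 CPM used a prior count of 0.5. Mouse numbers pair the regions, since the same number in the titles was taken as the same animal. Within-group deviations of the regions of a mouse over 15701 genes correlated at a median r of 0.27 (0.014 to 0.604), and 36 of 39 mice were above 0.1. Of the 39 mice, 28 matched best with the other region of their own number, and the rest matched better with another mouse. The unblocked fit is the main one and the fit with the mouse as a replicate block is an alternative. Other alternatives were DESeq2 1.42.0, limma-voom (limma 3.58.1), RLE factors, library totals, 2 other filters, length and GC offsets, sets of mouse numbers as covariate and leaving out libraries. The scripts were tested on simulated data. Promoters came from RefSeq. Named genes were Cox5a, the Sdh genes, the isoform families, the 10 members lowest and 10 highest by log2 fold change among those called between regions (2 were called higher) and the 3 nearest to 0, and the 3 members of smallest p in each stress or ketamine comparison. Others given as examples (core subunits, the c subunit genes, Uqcr11, Atp5s) were chosen after their values were seen. Members with near-identical copies or pseudogenes can share reads. Libraries of a region come from separate mice. By the paper, whole housing groups were either defeated or kept as controls, so mice of a housing group are not independent for stress. Which mice shared a housing group is not in the labels and was not modelled. The values of 1 member, which is counted in all totals, are not reported here.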

Additional observations from a re-analysis of the deposited data

Results flagged for a closer look

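The values of 12 named genes and the mean levels of all members and of each complex were examined in each of the 8 groups for a library far from the others by Dixon's test, and 5 of these sets of values (3.47%) held such a library. Chance flags about 5% of such sets. In mPFC, Sdha in mouse 23 (CTRL, ketamine) was 315.0 CPM, with the nearest library at 350.1. In vHipp, Atp5g1 in mouse 11 (CSDS, ketamine) was 49.4 CPM, with the nearest at 91.6, in the library with the high share of mitochondrial counts. Ndufv3 in mouse 1 (CSDS, ketamine) was 73.3 CPM in vHipp, with the nearest at 59.0. Atp5h in mouse 18 (CSDS, saline) was 157.4 CPM in vHipp, with the nearest at 128.6. Cox6a2 in mouse 23 (CTRL, ketamine) was 1.91 CPM in vHipp, with the nearest at 1.03. Mouse 1 and mouse 18 also had the highest mean level of all members in their vHipp groups.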

How the results depend on the processing

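The count of members lower in mPFC ran from 58 (library totals only, which gave a median of -0.13 and moved the median of all genes to 0.05) to 75 (mouse as a replicate block, or edgeR's expression filter) over the alternatives, and was 68 with a length offset. With the mouse as a replicate block Cox6b2 lost its call (0.27 on the log2 scale, adjusted p = 0.0515), Cox6a2 (0.30) and Cox7b2 (-0.27) gained one, and the direction of no named gene turned. Cox7a2 lost its call with library totals (-0.07) and with the length offset (-0.08). Sdha gained a call with the expression filter (-0.05) and turned from -0.05 to 0.000253 with library totals. Ndufa4l2 gained a call (0.24) without 3 vHipp libraries, an alternative chosen after seeing the data, as was its r with glial markers without mouse 11. With the mean transcript length in place of the exon union, the median level was 74.4 CPM per kilobase in mPFC and 84.9 in vHipp. After the length offset the median r between members was 0.48 in mPFC and 0.51 in vHipp, and r between regions was 0.42. No member and no other gene was called for stress or ketamine in any fit that left out 1 library. In these, the median of the mPFC interaction ran from 0.11 (without mouse 1) to 0.18 (without mouse 18), with 7 members at an unadjusted p below 0.05 without mouse 22 or mouse 1 and 47 without mouse 11. The counts at that level ran from 1 (without mouse 22) to 15 (without 18) for stress under saline in mPFC, 2 (without 20) to 29 (without 11) for stress under ketamine, 1 (without 22) to 6 (without 29) for ketamine in CTRL, 1 (without 1) to 25 (without 18) for ketamine in CSDS, and in vHipp 0 (without 9) to 14 (without 24) for stress under saline and 2 (without 1) to 17 (without 23) for stress under ketamine. The vHipp ketamine medians changed sign in some of these fits, between -0.03 and 0.03 in CTRL and between -0.02 and 0.05 in CSDS mice and for the interaction. Isoforms at about 1 CPM or less are limited by depth.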
